A study of Mus musculus with 6 samples.

Results

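RNA of 10 genes of Toll-like receptor signalling was followed in isolated mouse mammary epithelial cells. The genes were the surface receptors *Tlr2* and *Tlr4*, the endosomal receptors *Tlr7* and *Tlr9*, the adaptor *Myd88*, the NF-κB subunit genes *Nfkb1*, *Nfkb2*, *Rela* and *Relb*, and *Nfkbia*, which encodes the inhibitor IκBα. They were chosen by name from a count matrix of 61880 rows, in which each row names an assembled locus and, where the assembly matched one, a gene symbol. Rows of the same locus were also summed, giving 53912 loci, and the 10 genes took up 15 rows. All 10 had enough counts to be tested, both as locus sums and as the row that carries the symbol.

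Toll-like receptors recognise molecules of microbes and of damaged cells. TLR2 and TLR4 sit on the cell surface and bind lipoproteins and lipopolysaccharide, while TLR7 and TLR9 sit in endosomes and bind single-stranded RNA and unmethylated DNA. All 4 signal through the adaptor MyD88 to the IκB kinases, which mark IκBα for degradation and so release dimers of RelA and the *Nfkb1* product to the nucleus, whereas RelB and the *Nfkb2* product act mainly in a slower, noncanonical branch. NF-κB raises the transcription of its own inhibitor *Nfkbia*. In the mammary gland, TLR2 and TLR4 are known from the response to mastitis, and TLR7 and TLR9 are known mainly from B cells, plasmacytoid dendritic cells and macrophages.

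The cells came from the inguinal mammary glands of female FVB/NJ mice in puberty, at 6 to 8 weeks of age. Of the 6 samples, 3 were from transgenic *fat-1* mice, whose roundworm transgene encodes a desaturase that turns *n*-6 into *n*-3 polyunsaturated fatty acids throughout the body, and 3 were from wildtype (WT) mice without it. Both genotypes were kept for life on the parental diet, a modified AIN93G with 10% fat by weight from safflower oil, supplying 22% of energy. Cells were isolated by the Prater method after removal of lymph nodes, and each sample was a pool of mice, so its value is a mean over animals. The minced glands were digested with enzymes for many hours, so all levels are those of cells after isolation. Any effect of this handling on the genes was not tested. The transgene itself was not analysed here.

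Some of these genes carry the NF-κB consensus in their own promoters, and the 3 sequences below are shown because they hold the pathway's own motif close to the start of transcription in a receptor, a subunit and the inhibitor. They were taken from RefSeq promoters of 300 bases, 250 before and 50 after the start, on GRCm38.p6, printed 5′ to 3′ on the gene's strand in lower case, with matches to the NF-κB consensus on either strand in capitals. A promoter was found for 6 of the 10 genes, and 1480 of 32851 mouse promoters (4.51%) held at least 1 match.
Tlr2, chr3:83841559-83841858, minus strand: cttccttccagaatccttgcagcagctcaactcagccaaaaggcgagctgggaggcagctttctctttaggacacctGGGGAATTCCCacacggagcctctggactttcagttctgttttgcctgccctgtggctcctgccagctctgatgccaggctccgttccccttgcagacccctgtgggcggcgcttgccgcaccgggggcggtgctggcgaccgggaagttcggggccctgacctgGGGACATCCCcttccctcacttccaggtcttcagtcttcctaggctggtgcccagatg
Nfkb2, chr19:46304487-46304786, plus strand: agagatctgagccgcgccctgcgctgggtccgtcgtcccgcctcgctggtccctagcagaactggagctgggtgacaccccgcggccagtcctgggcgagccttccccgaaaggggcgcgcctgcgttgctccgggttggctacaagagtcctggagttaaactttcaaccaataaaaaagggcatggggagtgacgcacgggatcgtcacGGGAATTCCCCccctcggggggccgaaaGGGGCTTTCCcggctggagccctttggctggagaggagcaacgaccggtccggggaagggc
Nfkbia, chr12:55492598-55492897, minus strand: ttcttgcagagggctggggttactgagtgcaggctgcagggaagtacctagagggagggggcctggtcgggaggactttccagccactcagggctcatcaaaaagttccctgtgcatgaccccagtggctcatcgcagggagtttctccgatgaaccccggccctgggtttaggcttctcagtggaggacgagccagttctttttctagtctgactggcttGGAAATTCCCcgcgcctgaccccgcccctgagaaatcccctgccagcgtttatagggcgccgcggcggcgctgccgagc
In *Tlr2*, overlapping matches began 173 and 172 bases upstream of the start and another, GGGACATCCC, began 8 bases upstream. In *Nfkb2*, overlapping matches began 39 and 38 bases upstream and GGGGCTTTCC began 11 bases upstream, and the promoters of its other 2 listed starts held matches too. *Nfkbia* held 1 match, GGAAATTCCC, 29 bases upstream. The *Tlr9*, *Myd88* and *Rela* windows held none. A match is a description of the letters and not of binding, which was not measured.

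The 6 libraries held between 204539059 and 232148824 counts, so that even the rarest of the 10 genes, *Tlr9*, had at least 1502 counts in every sample. Depth, in these estimated counts, was therefore a lesser limit to the precision than the number of samples. The division of counts among assembled rows was another limit. The coefficient of variation that edgeR fitted in common was 0.45 for rows and 0.30 for locus sums. All 16 epithelial markers had counts in every sample. Markers of other cells had counts too, so at this depth the presence of counts does not test the label of epithelial cells. The summed level of 8 luminal markers ranged from 955 to 4275 CPM (counts scaled to a common library total after TMM adjustment) in *fat-1* pools and 1017 to 3299 CPM in WT pools. The sum of 8 B cell markers ran the other way, from 637 to 1538 CPM in *fat-1* mice and 667 to 1579 CPM in WT mice, and all 16 B and T cell markers had counts in every sample. In bulk RNA, fewer cells of a type and less RNA per cell cannot be told apart.

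As locus sums, none of the 10 genes differed between *fat-1* and WT mice beyond the spread between samples. With edgeR's quasi-likelihood test on locus sums, 0 of the 10 passed an adjusted *p* of 0.05 (0% of 24061 tested loci did) and 0 passed an unadjusted *p* of 0.05 (1.14% of loci did, 0.478% higher and 0.661% lower in *fat-1* mice). DESeq2 and edgeR's exact test also called 0 of the 10 at either threshold. The 2 genotypes overlapped for all 10 locus sums, while 4.15% of all tested loci had groups that did not overlap (1.79% higher and 2.36% lower in *fat-1* mice). The log2 fold changes of *fat-1* over WT ranged from −0.31 to 0.39 with a median of 0.06, beside a median of 0.0018 over all loci, and 7 of the 10 were above 0. Every adjusted *p* was 1.00.

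**Figure D1:**
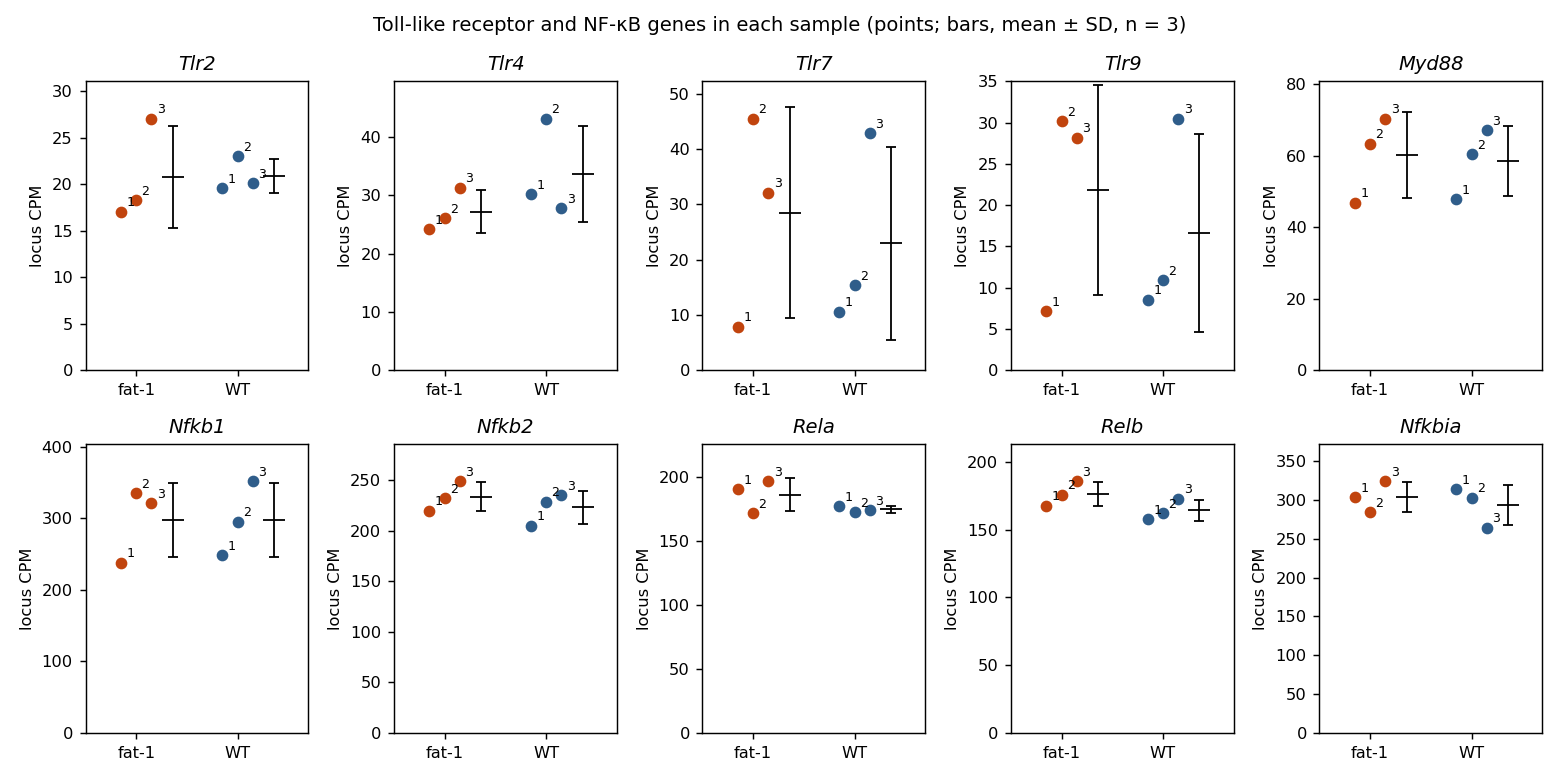
Level of each gene in CPM of its locus (y axis, from 0) in the 3 *fat-1* and 3 WT samples (points, numbered by sample), with the mean ± SD beside them. The genotypes overlap in all 10 panels, and *Tlr7* and *Tlr9* show the widest spread relative to their means.

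The surface receptors were present at low levels. Values below are in the order of samples 1, 2 and 3 of each genotype, and positions are on GRCm38. *Tlr2*, the receptor for bacterial lipoproteins (chromosome 3, 83836272 to 83841767, minus strand), had 17.0, 18.2 and 27.0 CPM in *fat-1* pools versus 19.6, 23.0 and 20.1 CPM in WT pools. The WT values all lay within the range of the *fat-1* values, and the log2 fold change was −0.01 (SE 0.20; 95% interval −0.49 to 0.47). *Tlr4*, the lipopolysaccharide receptor (chromosome 4, 66827584 to 66930284, plus strand), had 24.2, 26.1 and 31.3 CPM in *fat-1* mice, against 30.2, 43.2 and 27.8 CPM in WT mice. The highest value was that of WT sample 2 and the 2 lowest were *fat-1* samples, but the groups overlapped and the log2 fold change of −0.31 (SE 0.20; −0.79 to 0.17) did not pass the test. The interval of *Tlr4* leaves room for a level in *fat-1* mice lower by up to 0.79 on the log2 scale. The value was −0.093 without WT sample 2.

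The 2 rows of the *Tlr2* locus divided its counts very unevenly. The row with the symbol held 72.6%, 37.5% and 66.9% of the locus in *fat-1* pools versus 47.7%, 92.0% and 31.2% in WT pools, and the rest lay in a row without a symbol. The share varied widely within both genotypes while the highest sum was 1.59 times the lowest. The symbol row alone gave a log2 fold change of 0.02 (SE 0.55), an SE larger than that of the sum.

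The endosomal receptors varied far more between samples, and in step with each other. *Tlr7*, the receptor for single-stranded RNA (chromosome X, 167304929 to 167330558, minus strand), had 7.89, 45.5 and 32.1 CPM in *fat-1* mice, against 10.6, 15.3 and 42.9 CPM in WT mice. *Tlr9*, the receptor for unmethylated DNA (chromosome 9, 106222598 to 106226883, plus strand), had 7.12, 30.2 and 28.2 CPM in *fat-1* pools versus 8.52, 10.9 and 30.5 CPM in WT pools. For both genes *fat-1* sample 1 was lowest, WT samples 1 and 2 came next, and *fat-1* samples 2 and 3 and WT sample 3 were high, so each genotype held low and high samples. The log2 fold change was 0.31 for *Tlr7* (SE 0.74; −1.48 to 2.10) and 0.39 for *Tlr9* (SE 0.67; −1.24 to 2.02). These intervals are wide enough to hold a change of more than 2-fold in either direction. The *Tlr7* value was 1.16 without WT sample 3 and −0.20 without *fat-1* sample 2, and that of *Tlr9* was 1.19 without WT sample 3 and 0.08 without WT sample 1.

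*Myd88* encodes the adaptor shared by these 4 receptors (chromosome 9, 119335934 to 119341411, minus strand). It had 46.9, 63.4 and 70.4 CPM in *fat-1* mice, against 47.8, 60.5 and 67.2 CPM in WT mice. Sample 1 was the lowest of each genotype and the groups overlapped almost fully, with a log2 fold change of 0.04 (SE 0.19; −0.43 to 0.51). The annotation places 290 bases of *Myd88* exons in common with exons of *Acaa1a* on the opposite strand, and whether the counting used strand is not stated, so its counts are uncertain by that overlap.

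The canonical NF-κB subunit genes were more abundant. *Nfkb1* (chromosome 3, 135584655 to 135691547, minus strand) had 238, 334 and 320 CPM in *fat-1* pools versus 248, 295 and 351 CPM in WT pools. Its genotype means were 297.6 ± 52.2 and 298.0 ± 51.7 CPM (SD, n = 3 each), and its log2 fold change was −0.0020 (SE 0.18; −0.43 to 0.43). *Rela*, which encodes the transactivating subunit p65 (chromosome 19, 5637483 to 5648130, plus strand), had 190.2, 172 and 196 CPM in *fat-1* mice, against 177, 172 and 174 CPM in WT mice. *Fat-1* samples 1 and 3 were above all WT samples and sample 2 below them, and the log2 fold change was 0.09 (SE 0.08; −0.10 to 0.29). The symbol rows of *Nfkb1* and *Rela*, which hold most of their loci, gave log2 fold changes of 0.06 (SE 0.20) and 0.13 (SE 0.10).

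*Nfkb2*, the precursor gene of the noncanonical branch (chromosome 19, 46304320 to 46312385, plus strand), had 220.1, 232.1 and 249 CPM in *fat-1* pools versus 205.1, 229 and 235 CPM in WT pools. The groups overlapped, with a log2 fold change of 0.07 (SE 0.09; −0.15 to 0.28). Its exons share 531 bases with an antisense RNA gene and 299 bases with *Psd*, with the same uncertainty as for *Myd88*.

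*Relb* (chromosome 7, 19606217 to 19629438, minus strand) was the gene whose result depended on which rows were counted. Its locus, assembled together with the neighbouring gene *Clasrp*, which encodes a protein of splicing regulation, had 168, 176 and 186 CPM in *fat-1* mice, against 158, 162 and 173 CPM in WT mice. The groups overlapped and the log2 fold change was 0.10 (SE 0.08; −0.09 to 0.30). Leaving out the *Clasrp* row changed it little, to 0.10 (SE 0.11).

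The row that carries the symbol *Relb* had 61.4, 38.8 and 99.2 CPM in *fat-1* pools versus 25.8, 29.8 and 38.3 CPM in WT pools. The 3 *fat-1* values lay above the 3 WT values, by a margin of less than 1 CPM between *fat-1* sample 2 and WT sample 3. The means were 66.5 ± 30.5 and 31.3 ± 6.38 CPM (SD, n = 3 each), and the log2 fold change was 1.09 (SE 0.37; 0.19 to 1.99). Its unadjusted *p* was 0.025 and its adjusted *p* 1.00 in edgeR's quasi-likelihood test, so the difference was not called. It was the only 1 of the 10 symbol rows with an unadjusted *p* under 0.05, beside 2.21% of the 30683 tested rows (1.07% higher and 1.14% lower in *fat-1* mice). Groups that did not overlap were found for 5.26% of rows, 2.57% higher and 2.7% lower. Its unadjusted *p* was above 0.05 without *fat-1* sample 3, where the log2 fold change was 0.68, and without WT sample 1 or WT sample 2.

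The row of this locus without a symbol had 71.6, 114 and 62.5 CPM in *fat-1* mice, against 104, 108 and 112 CPM in WT mice, and the 2 *fat-1* samples with the most *Relb* row counts had the fewest here. Its log2 fold change of −0.38 (SE 0.24) did not pass the test. *Relb* took 37.4% ± 15.8 of the locus in *fat-1* pools versus 19.0% ± 2.95 in WT pools (SD, n = 3 each), and the row without a symbol took 47.1% ± 16.1 and 65.8% ± 0.730. The *Clasrp* row had between 22.1 and 35.4 CPM in the 6 samples.

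**Figure D2:**
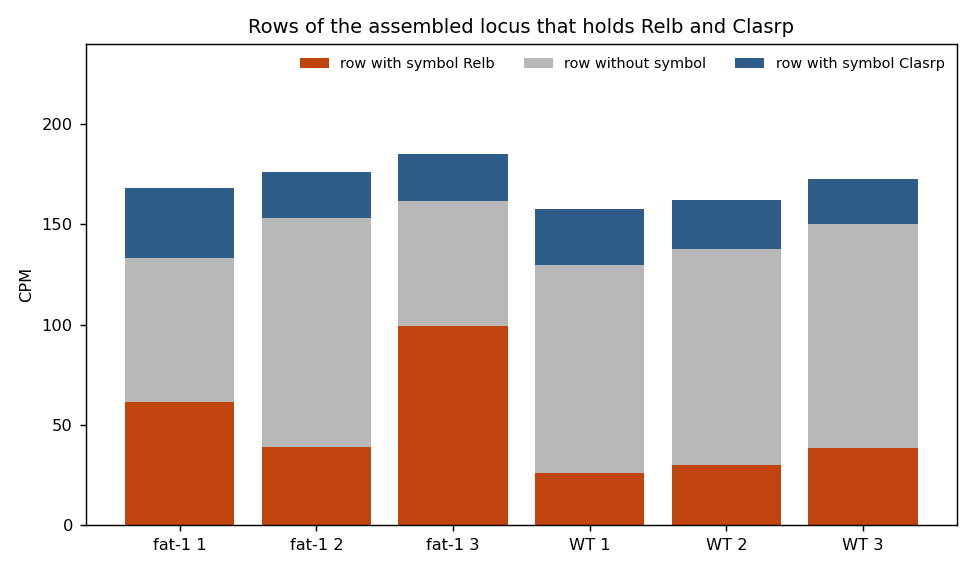
Counts of the *Relb* and *Clasrp* locus in CPM (y axis) in each of the 6 samples, stacked by row. The stacks reach between 158 and 186 CPM, whereas the part with the symbol *Relb* runs from 25.8 to 99.2 CPM.

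*Nfkbia* encodes the inhibitor that holds NF-κB in the cytoplasm and is itself an NF-κB target (chromosome 12, 55489410 to 55492647, minus strand). It had 304, 284 and 324 CPM in *fat-1* mice, against 314, 303 and 264 CPM in WT mice. WT sample 3 was lowest and *fat-1* sample 3 highest, with the others between them in mixed order. The log2 fold change was 0.05 (SE 0.10; −0.18 to 0.28).

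**Figure D3:**
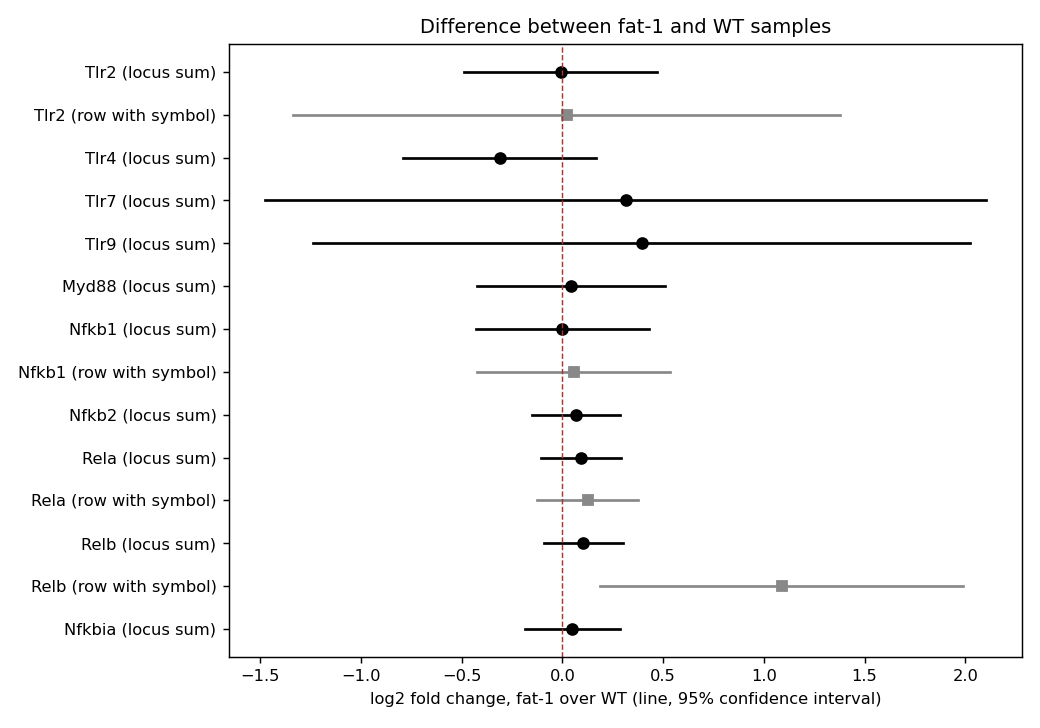
Log2 fold change of *fat-1* over WT (x axis) with its 95% interval for the locus sum of each gene (black circles) and, for the 4 genes with several rows, the row that carries the symbol (grey squares). Intervals of all 10 locus sums cross 0, those of *Tlr7* and *Tlr9* are the widest, and that of the *Relb* row runs from 0.19 to 1.99.

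Per kilobase of annotated exon, the inhibitor gene was the most abundant and the receptors the least in these isolated cells. *Nfkbia* had 186 ± 13.4 CPM per kb (SD, n = 6), *Rela* 58.7 ± 3.40, *Nfkb2* 49.8 ± 3.23 and *Nfkb1* 24.7 ± 3.85. The ranges of these 4 did not overlap with each other. *Myd88* had 23.0 ± 3.85 CPM per kb and overlapped with *Nfkb1*, although *Nfkb1* was above it in 5 of 6 samples. The other genes were taken as locus sums, but *Relb* as the row with its symbol, because its locus also holds *Clasrp*, and this row had 12.6 ± 7.10 CPM per kb. All rows of the locus but that of *Clasrp* came to 37.1 ± 3.31 CPM per kb of *Relb* exon, which would place *Relb* above *Nfkb1*, so its place depends on the rows counted. The receptors followed, with *Tlr2* at 6.91 ± 1.21, *Tlr7* at 6.30 ± 4.07, *Tlr9* at 5.53 ± 3.30 and *Tlr4* at 5.48 ± 1.21 CPM per kb. From *Nfkb1* downwards each range overlapped with the next, so the order among the 4 receptors is not resolved. The length is that of the merged exons in the annotation, not of the transcripts present.

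The 10 genes fell far apart in how much they varied across the 6 samples regardless of genotype. The highest sample of *Tlr7* was 5.76 times the lowest, and 98.5% of 14657 loci with a mean of at least 1 CPM had a smaller ratio. For *Tlr9* the ratio was 4.28 (96.2% of loci smaller). No other member reached a ratio of 2, which 23.4% of the loci did: *Tlr4* had 1.78, *Tlr2* 1.59, *Myd88* 1.5, *Nfkb1* 1.48, *Nfkbia* 1.23, *Nfkb2* 1.21, *Relb* 1.18 and *Rela* 1.14, against a median of 1.42. *Rela* varied the least of the 10, with 10.9% of loci below it, while *Tlr2*, *Tlr4*, *Myd88* and *Nfkb1* lay above the median.

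Markers of lymphocytes, myeloid cells and epithelium also varied between the samples, partly in the same order as the endosomal receptors or its reverse. The summed B cell markers were 637, 1538 and 1242 CPM in *fat-1* pools versus 667, 782 and 1579 CPM in WT pools. Part of this came from loci shared with other genes, such as that of *Cd79a* and *Arhgef1*. The 5 B cell markers without a shared locus came to 252, 695 and 556 CPM in *fat-1* pools versus 285, 325 and 717 CPM in WT pools. The pan-leukocyte gene *Ptprc* had 166, 407 and 274 CPM in *fat-1* mice, against 157, 201 and 398 CPM in WT mice. T cell markers summed to between 111 and 219 CPM in *fat-1* mice and between 94.4 and 217 CPM in WT mice. The 3 samples with high *Tlr7* and *Tlr9* were the same 3 with the highest B cell markers and *Ptprc*. Since the samples fell into 3 low and 3 high ones in both measures, no test of a correlation with the marker lists is given for these receptors. The 8 luminal markers ran opposite to them, with 4275, 955 and 1694 CPM in *fat-1* pools versus 3299, 1901 and 1017 CPM in WT pools, lowest in the same 3 samples. The 8 myeloid markers summed to between 739 and 903 CPM in *fat-1* pools and between 788 and 839 CPM in WT pools, most of it from the *Cd68* locus that is shared with *Eif4a1*. The 7 without a shared locus came to 42.9, 71.8 and 62.0 CPM in *fat-1* mice, against 49.0, 66.1 and 77.1 CPM in WT mice, low in *fat-1* sample 1 and WT sample 1 and higher in the other 4. Of 4 plasmacytoid dendritic cell markers 3 had counts in all samples, with *Siglech* between 0.20 and 0.80 CPM and *Klk1* at 0 in WT sample 1, and the neutrophil sum was at most 45.6 CPM. The part of these cell types in the receptor levels was not tested.

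**Figure D4:**
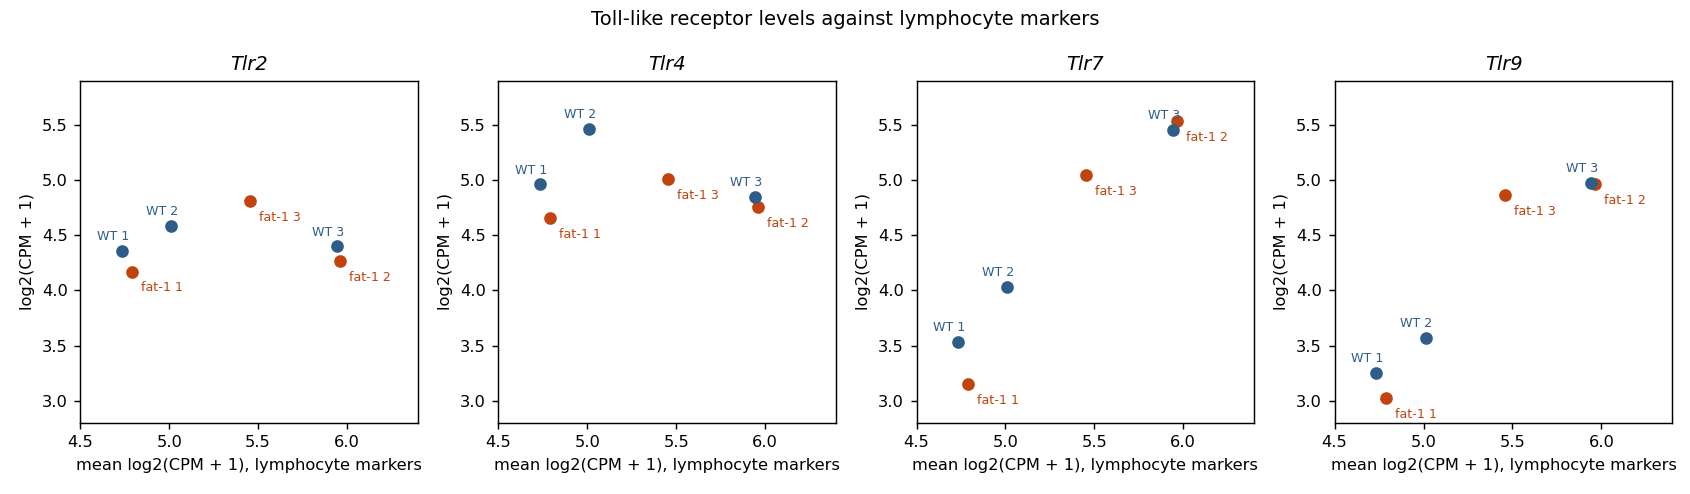
Level of each receptor as log2(CPM + 1) (y axis) against the mean log2(CPM + 1) of 16 B and T cell markers (x axis), 1 point per sample. *Tlr7* and *Tlr9* are high in the 3 samples with the most lymphocyte marker RNA, *fat-1* samples 2 and 3 and WT sample 3, while *Tlr2* and *Tlr4* show no such order.

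*Nfkb1*, with 238 and 248 CPM in *fat-1* sample 1 and WT sample 1 and at least 295 CPM in the other 4, had the same low samples as the myeloid markers, and those 2 samples were also the lowest in lymphocyte and the highest in epithelial markers. With such a gap no coefficient is given for it either. *Tlr2* was spread more evenly. On the log2(CPM + 1) scale, its Pearson's r with the mean of 6 fibroblast markers over the 6 samples was 0.820 (*p* = 0.0458 by exact permutation, 0.153 when adjusted over all relations computed). Spearman's rho was 0.943 (*p* = 0.0167, adjusted 0.133, exact), and r was 0.829 without the 2 samples of most extreme marker means. With symbol rows in place of loci for both *Tlr2* and the markers, r was 0.22. The relation was not particular to *Tlr2*. With the same list, r of the locus was 0.814 for *Myd88*, which had the same low samples as *Nfkb1*, and 0.679 for *Tlr4*. *Rela* and *Nfkbia* had −0.228 and −0.019. Of the 40 relations between the 10 genes and 4 marker lists, 12 had an exact unadjusted *p* under 0.05 for r, among them relations of the genes with such gaps, and 0 passed after Benjamini–Hochberg adjustment. The fibroblast sum itself ran from 1551 to 6065 CPM in *fat-1* pools and 3332 to 5617 CPM in WT pools.

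The receptors were also set against *Ptprc* in the same sample. The difference of the mean log2 ratios to *Ptprc*, *fat-1* minus WT, was −0.23 for *Tlr2*, −0.48 for *Tlr4*, 0.05 for *Tlr7* and 0.18 for *Tlr9*, with exact permutation *p* of 0.5, 0.5, 0.8 and 0.7 (two-sided, n = 3 each, where 0.1 is the smallest possible, so that no difference could pass 0.05). The ratio made *Tlr7* and *Tlr9* more even, with the highest sample 2.46 and 2.39 times the lowest in place of 5.76 and 4.28. For *Tlr2* and *Tlr4* it did the reverse, with 2.79 and 3.36 times in place of 1.59 and 1.78. *Ptprc* was itself high in the same samples as *Tlr7* and *Tlr9*, so part of this contrast was given in advance. It also depended on the reference. Against the mean log2 level of the myeloid markers, the spread was 3.39 times for *Tlr7*, 2.64 for *Tlr9*, 1.68 for *Tlr2* and 1.86 for *Tlr4*. *Tlr7* came to between 4.75% and 11.7% of the *Ptprc* level in the 6 samples.

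The loci whose levels across the 6 samples were most like those of each receptor were ranked by Pearson's r on log2(CPM + 1) among 14007 loci, as a description over 6 points. The loci closest to *Tlr9* included *Mknk1*, *Dnase1l3*, *Cybb* and *Themis2*, with r between 0.998 and 0.999. *Tlr7* was closest to *Gm16675*, *Slc2a9*, *Icosl*, *Sp140* and the locus of *Ddx41* and *Dok3*, with r between 0.998 and 0.999. As both receptors had 3 low and 3 high samples, a locus with the same division of samples has a high r with either. The closest locus was *Slc39a13*, a zinc transporter gene, for *Tlr2* (r = 0.997) and *Pfn2* for *Tlr4* (r = 0.988). As the largest of 14007 values over 6 points, these r are high by selection, and the likeness was not tested.

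The rest of the pathway was compared between genotypes in the same way. Of 70 further genes fixed by role, 69 were tested as locus sums and 0 passed the adjusted threshold, also with DESeq2 and edgeR's exact test. Of these, 39 log2 fold changes were above 0 and 30 below, with a median of 0.04 and a range from −0.49 (*Il6*) to 0.69. Only 1 of the 69 had an unadjusted *p* under 0.05, beside 1.14% of all loci, a share near the background, and DESeq2 and the exact test gave 1 as well. This was *Il12b*, the shared subunit gene of the cytokines IL-12 and IL-23, with 0.872, 1.48 and 1.18 CPM in *fat-1* pools versus 0.706, 0.653 and 0.842 CPM in WT pools. Its groups lay apart by a narrow margin at this low level, as those of 4.15% of all loci did, and its log2 fold change of 0.69 (SE 0.25) had an unadjusted *p* of 0.032 and an adjusted *p* of 1.00. Without WT sample 1 or WT sample 2 the count was 0 of 69, without WT sample 3 it was 5, and without any 1 *fat-1* sample it was 1, with *Tnf* in place of *Il12b* when *fat-1* sample 2 was left out and *Sod2* when *fat-1* sample 3 was.

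Among the other Toll-like receptors, 7 of 8 were tested and 0 passed. The locus of *Tlr1*, the partner of TLR2, had between 12.05 and 23.9 CPM over the 6 samples. Its symbol row held only 0.448 to 3.03 CPM, and the rest lay in a row without a symbol. *Tlr3*, the receptor for double-stranded RNA, had between 10.3 and 18.3 CPM, and *Tlr6*, another TLR2 partner, between 2.09 and 4.18 CPM. The flagellin receptor *Tlr5* had between 0.634 and 1.29 CPM, *Tlr8* between 0.126 and 0.331 CPM and *Tlr12* between 0.397 and 2.18 CPM. *Tlr11* had at most 6 counts in any sample, with 0 in *fat-1* sample 1, and was not tested. The *Tlr13* locus had between 46.4 and 54.7 CPM, but it also holds *Atp7a*, a copper transporter gene. The row with the symbol *Tlr13* had at most 3.12 CPM, with 0 in *fat-1* sample 3. *Tlr1*, *Tlr6* and *Tlr12* had their highest values in WT sample 3 and their next highest in *fat-1* sample 2. These were also the samples with the most B cell, T cell and neutrophil marker RNA and the most *Ptprc*. *Tlr5* had its lowest values in the same samples, and *Tlr8* was highest in WT sample 2. As with *Relb*, the *Tlr3* row differed from its locus, with a log2 fold change of −0.50 (SE 0.19, unadjusted *p* = 0.042, adjusted *p* = 1.00) against −0.04 (SE 0.25) for the sum. Of all tested rows, 2.21% had an unadjusted *p* at or under 0.05 in this quasi-likelihood test. No count over the symbol rows of the pathway is given.

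The other NF-κB and IκB genes were *Rel*, *Nfkbib*, *Nfkbid*, *Nfkbie*, *Nfkbiz* and *Bcl3*, and their log2 fold changes ranged from −0.02 to 0.15. *Rel*, the subunit gene prominent in lymphocytes, had 91.0, 167 and 116 CPM in *fat-1* mice, against 100.3, 104 and 157 CPM in WT mice, and was again highest in *fat-1* sample 2 and WT sample 3. *Nfkbib*, an inhibitor gene and per kilobase the most abundant of these 6, had between 74.6 and 109.9 CPM. *Nfkbid* had between 22.5 and 49.5 CPM, *Nfkbiz* between 113 and 143 CPM and *Bcl3* between 47.3 and 76.4 CPM. The *Nfkbie* locus, shared with *Slc35b2*, had between 93.9 and 125 CPM.

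In the remaining roles, the most abundant gene per kilobase also overlapped between genotypes. *Cxcl1*, a neutrophil chemokine gene and NF-κB target, had 1769.9, 3656 and 3697 CPM in *fat-1* pools versus 2615, 3768 and 3653 CPM in WT pools. *Hsp90b1*, the chaperone of most Toll-like receptors, had 657, 845 and 847 CPM and 842, 958 and 759.9 CPM at a locus that also holds small predicted genes. *Irf7*, the interferon regulatory factor downstream of TLR7 and TLR9, had 122, 344 and 372 CPM and 206, 305 and 341 CPM, a 3.04-fold spread with *fat-1* sample 1 lowest. *Tnip1*, an inhibitor of NF-κB signalling, had between 123 and 190.4 CPM, the kinase adaptor *Tab2* between 186 and 207 CPM and the kinase *Tbk1* between 86.5 and 107 CPM. *Unc93b1*, which carries TLR7 and TLR9 to the endosome and was chosen after its values were seen, had 106, 208 and 207 CPM in *fat-1* mice, against 116, 127 and 224 CPM in WT mice, low and high in the same samples as both receptors. Of the 65 loci of the list with a mean of at least 1 CPM, 21 had a highest sample at least 2 times the lowest, against 23.4% of the 14657 loci at that mean.

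**Figure D5:**
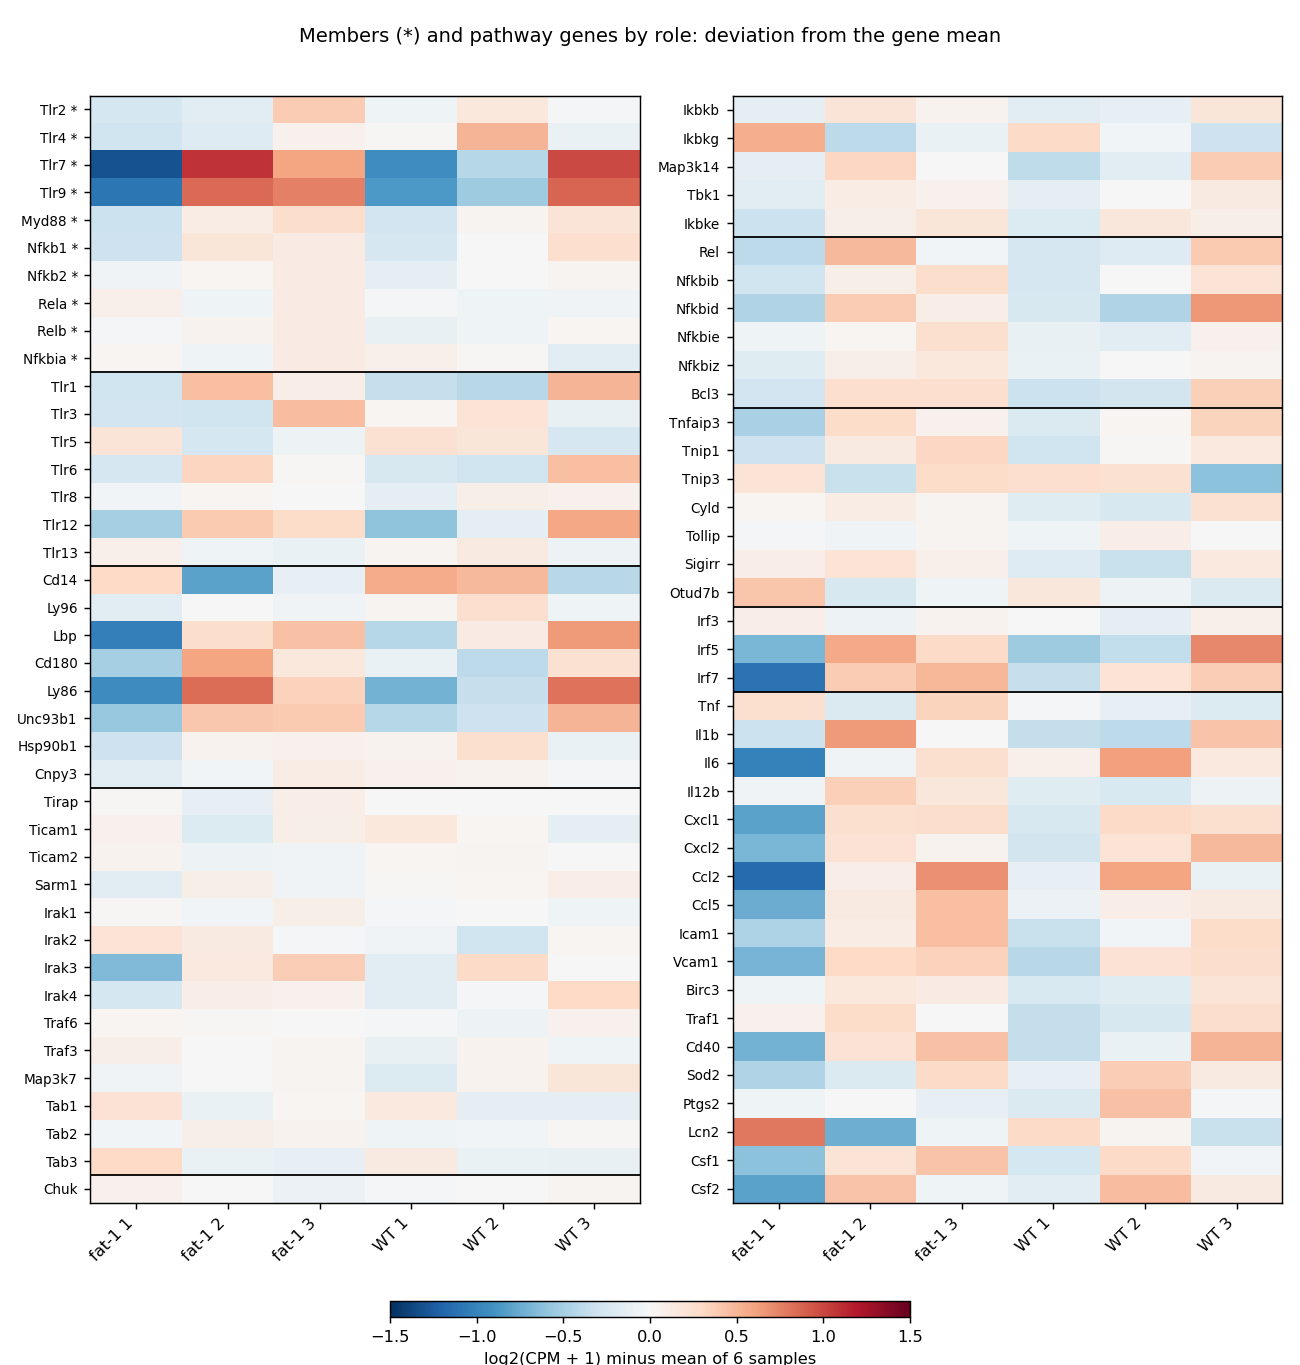
Deviation of each gene (rows, by role, the 10 genes marked with an asterisk) from its mean over the 6 samples (columns) on the log2(CPM + 1) scale, for the 10 genes and the 69 tested pathway genes. *Tlr7* and *Tlr9* are among the rows with the strongest colours, and columns of both genotypes hold raised and lowered values.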

How the data were processed

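Total RNA, which the paper describes as messenger and noncoding RNA together, was sequenced as paired ends from 3 *fat-1* and 3 WT pools. The methods give 2 to 3 mice per pool in 1 place and 6 to 8 per analysis in another. The authors mapped reads to GRCm38 with HISAT2, assembled transcripts with StringTie, and deposited estimated counts as a matrix of unnormalized whole numbers. The StringTie version, annotation, use of strand and conversion to counts are not given in the sources used here. Counts were tested as rows and as sums per locus (main result) in R 4.3.3 with edgeR 4.0.16 (filterByExpr, TMM, glmQLFit, glmQLFTest, genotype as the only term, Benjamini–Hochberg over all features), with DESeq2 1.42.0 among the alternatives. SE was taken as |log2 fold change|/√F. The code was tested on simulated counts. Exact permutation tests were two-sided. Gene positions and lengths are from GENCODE on GRCm38, matched by symbol. Python 3.11.15, scipy 1.17.1 and matplotlib 3.10.9 were used for summaries. The genes and lists were chosen with earlier results of these data known. All 10 genes are described; of the pathway list, the text names the 2 genes of smallest unadjusted *p* under 0.05 per role, the most abundant per kb in each role, and all other Toll-like receptors and NF-κB or IκB genes. *Unc93b1*, *Tnf*, *Sod2* and *Il6* were named after their values were seen. A result among the loci most alike to *Tlr9* is not reported here.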

Additional observations from a re-analysis of the deposited data

How the results depend on the processing

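No gene of the 10 passed the adjusted threshold under any setting tried, as a row or as a locus sum. Of 178 values for these genes under alternatives, 160 kept their direction, 18 changed sign and 0 became significant. The *Nfkb1* locus turned to 0.0017 with DESeq2 and with RLE size factors. Leaving out 1 sample gave log2 fold changes of −0.25 to 0.12 for the *Tlr2* locus, −0.20 to 1.16 for *Tlr7*, −0.086 to 0.20 for *Myd88*, −0.12 to 0.15 for *Nfkb1* and −0.0096 to 0.10 for *Nfkbia*, and of −0.35 to 0.67 for the *Tlr2* row and −0.062 to 0.21 for the *Nfkb1* row. For the *Relb* row it gave 0.68 to 1.36, and the count of symbol rows at unadjusted *p* 0.05 was 0 or 1. The log2 ratios to *Ptprc* differed by −0.64 to 0.16 for *Tlr2*, −0.995 to −0.15 for *Tlr4*, −0.18 to 0.48 for *Tlr7* and −0.11 to 0.52 for *Tlr9*. Over all features, 0 loci passed the adjusted threshold in the main result, 8 with DESeq2, 6 with the exact test and 0 to 1 (1 without WT sample 1) with a sample left out; for rows these were 0, 93, 32 and 0 to 2 (2 without WT sample 1). At the unadjusted threshold, 274 loci became 579 without the count filter and 204 to 542 with a sample left out (482 without *fat-1* sample 1, 542 without WT sample 3), and 678 rows became 1136 and 635 to 986. Same-numbered samples of the genotypes deviated together for number 1 (r = 0.51) but not for numbers 2 and 3 (r = −0.10 and 0.07). *Fat-1* sample 2 and WT sample 3 gave 0.48. The numbers are not stated to pair samples and were not taken as pairs. With the replicate number as a block, 376 loci and 784 rows passed the unadjusted threshold and 0 and 0 the adjusted one, with 0 of the 10 genes called. The block lowered the SE of the locus value from 0.74 to 0.46 for *Tlr7* and from 0.67 to 0.39 for *Tlr9*. It also fell from 0.19 to 0.09 for *Myd88* and from 0.18 to 0.10 for *Nfkb1*, and rose slightly for *Rela* and *Nfkbia*. Markers in loci shared with other genes were left out as an alternative chosen after seeing the data, and 0 of 40 relations then passed. The cause of these changes was not tested. With 3 pools per genotype, changes of *Tlr7* and *Tlr9* within their intervals cannot be resolved. The edgeR and DESeq2 p-values set the genotype difference against the spread between these pools, estimated with information shared across features.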
